A study of Homo sapiens with 8 samples.

Results

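The genes described here are 7 matrix metalloproteases, MMP1, MMP2, MMP3, MMP7, MMP9, MMP13 and MMP14, and 3 tissue inhibitors of metalloproteases, TIMP1, TIMP2 and TIMP3. They were taken by gene symbol from the deposited count table, in which all 10 have 1 row each, out of 57445 genes. The cells were MDA231-BrM2, a derivative of the human breast carcinoma line MDA-MB-231 that metastasises to brain. Ribosome-bound RNA was pulled down from them with an anti-GFP antibody (TRAP, translating ribosome affinity purification) and sequenced, so each value measures transcripts on tagged ribosomes and not protein or enzyme activity.

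The 8 libraries form 4 groups of 2. Cells carrying hairpin 1 (Cx43sh1) or hairpin 2 (Cx43sh2) against connexin 43 (gene GJA1), a channel-forming protein of gap junctions, were cultured with astrocytes. Cells carrying the control hairpin (consh) were cultured with astrocytes or alone. Cocultures held 1 astrocyte per cancer cell and lasted 24 h, and all cells grew in DMEM with 10% fetal bovine serum and 2 mM glutamine. Whether each hairpin line was a clone or a pool, and the species of the astrocytes, are not given in the sources used here. Connexin 43-depleted cells without astrocytes are not among the 4 groups, so an effect of a hairpin on its own cannot be told apart from an effect of the hairpin in coculture. The series calls the 2 libraries of a group independent replicates without saying what was repeated, so the p-values measure the spread between these libraries, which may be technical.

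Matrix metalloproteases are zinc endopeptidases that cut extracellular matrix and cell surface proteins. Most are secreted as inactive precursors and are activated when a propeptide is removed, whereas MMP14 sits in the plasma membrane. The TIMPs bind the active site of the mature enzymes and block it. TIMP2 also bridges pro-MMP2 to MMP14 at the cell surface, where MMP2 is activated, and TIMP3 is held in the matrix and additionally blocks ADAM17 and other membrane sheddases. In brain metastasis the family is studied for its part in crossing and remodelling the vessel wall and the matrix around it.

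MMP1, MMP3, MMP7 and MMP13 lie on the minus strand of a cluster of metalloprotease genes on chromosome 11 (GRCh38, GENCODE 29). MMP7 spans chr11:102520508-102530753, MMP1 spans chr11:102789920-102798160, MMP3 spans chr11:102835801-102843803 and MMP13 spans chr11:102942995-102955734. The other members are scattered: MMP2 lies at chr16:55389700-55506691, MMP9 at chr20:46008908-46016561, MMP14 at chr14:22836557-22849027, TIMP1 at chrX:47582313-47586789 and TIMP3 at chr22:32801701-32863043, all on the plus strand, and TIMP2 lies at chr17:78852977-78925387 on the minus strand. The library kit does not mark strand, so reads from exons that overlap on opposite strands cannot be told apart. MMP1 shares 150 exon bases and MMP3 shares 32 with the pseudogene WTAPP1 on the opposite strand, which had 3 to 12 reads in each library, and MMP9 shares 430 exon bases with the antisense gene SLC12A5-AS1. TIMP2 shares 198 exon bases with CEP295NL on its own strand.

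RefSeq promoter sequences (GRCh38.p14) were matched for 4 of the 10 genes. Shown here are the stretches just upstream of TIMP3, the inhibitor that passed the test in several contrasts, of MMP14, an abundant protease, and of MMP7, a protease that was close to absent. All run 5′ to 3′ on the gene's strand, with motif matches in capitals. They lie at chr22:32801455-32801700 (plus strand), chr14:22836335-22836556 (plus strand) and chr11:102530754-102530997 (minus strand).
TIMP3: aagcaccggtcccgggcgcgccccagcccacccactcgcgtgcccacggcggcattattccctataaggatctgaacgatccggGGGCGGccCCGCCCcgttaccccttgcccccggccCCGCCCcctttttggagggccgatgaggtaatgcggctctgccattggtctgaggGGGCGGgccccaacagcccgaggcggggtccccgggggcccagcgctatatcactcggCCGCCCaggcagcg
MMP14: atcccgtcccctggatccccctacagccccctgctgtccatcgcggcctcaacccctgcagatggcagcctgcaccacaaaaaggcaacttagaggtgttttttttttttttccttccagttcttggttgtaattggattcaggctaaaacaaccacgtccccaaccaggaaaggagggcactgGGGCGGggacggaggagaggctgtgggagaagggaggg
MMP7: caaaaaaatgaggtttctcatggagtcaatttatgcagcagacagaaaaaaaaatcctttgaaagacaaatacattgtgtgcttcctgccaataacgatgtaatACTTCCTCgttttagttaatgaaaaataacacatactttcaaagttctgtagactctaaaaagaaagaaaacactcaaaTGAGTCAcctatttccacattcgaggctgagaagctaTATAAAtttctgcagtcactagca
The motifs were searched on both strands in the 250 bases before each start. The printed stretches are shorter, at 246 bases for TIMP3, 222 for MMP14 and 244 for MMP7. They leave out the 4, 28 and 6 bases of the window that lie inside an annotated transcript. The TIMP3 stretch holds 5 matches to the GC box GGGCGG and the MMP14 stretch 1. Of 35116 promoter windows of 250 bases, 42.6% hold at least 1. The MMP7 stretch holds an AP-1 match (TGANTCA, found in 6.57% of windows), a TATA match (TATAAA, 10.7%) and an ETS match (GAGGAAGT, 2.17%). No window of the 4 matched genes, TIMP1 included, held a match to the 10-letter NF-kB element (found in 1.73% of windows) or to the interferon-stimulated response element (3.02%).

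Gene counts ran from 38219702 to 48997555 per library, and a floor of 3 reads corresponded to 0.0624 to 0.0805 counts scaled to a library total of 1000000 (CPM). GJA1, the target of the hairpins, had 27.8 and 27.8 CPM with hairpin 1, 31.7 and 33.8 CPM with hairpin 2, 65.9 and 64.7 CPM in control cocultures and 51.1 and 46.3 CPM in control cells alone, so every hairpin library lay below every control library. All 10 marker genes of the carcinoma line were detected in every library. Adjusted p-values are from edgeR's quasi-likelihood test, fitted over all 8 libraries, with Benjamini-Hochberg adjustment over 15806 genes and a threshold of 0.05. Of the 10 members, 8 passed the filter of a mean of 10 counts. MMP9, with a mean of 10.4 counts, lay just inside it and only through its reads in control cocultures, MMP13, with 8.88, just outside it, and MMP7 far below it.

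Per kilobase of exon, MMP1 was the most abundant member in control cocultures, at 222 ± 18.3 CPM per kb (SD, n = 2). TIMP2 followed at 89.3 ± 3.37, MMP14 at 84.9 ± 1.42 and TIMP1 at 80.8 ± 11.0 CPM per kb. TIMP2, MMP14 and TIMP1 stood within the spread of TIMP1, and TIMP1 lay above MMP14 when lengths were those of the longest coding transcript. TIMP3 stood at 25.4 ± 0.420 and MMP2 at 8.09 ± 0.489 CPM per kb. MMP3, at 0.488 CPM per kb, MMP13 at 0.186, MMP9 at 0.152 and MMP7 at 0.0168 were far lower.

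Among the secreted collagenases, the proteases that open the triple helix of fibrillar collagen, MMP1 lay lower with hairpin 1 and higher with hairpin 2 than in control cocultures, and the first of these passed the test. MMP1 had 352 and 284 CPM with hairpin 1, 556 and 552 CPM with hairpin 2, 411 and 462 CPM in control cocultures and 495 and 535 CPM in control cells alone. Both hairpin 1 libraries lay below both control cocultures, both hairpin 2 libraries lay above them, and no pair of groups overlapped. Relative to the control cocultures MMP1 fell by 27.2% with hairpin 1 (log2 change -0.46, SE 0.106, adjusted p = 0.0369). With hairpin 2 the log2 difference was 0.34 (SE 0.106, 95% interval 0.10 to 0.58, adjusted p = 0.116). In edgeR fits of the compared groups only, the adjusted p was 0.167 with hairpin 1 and 0.0446 with hairpin 2. Over all genes, replicate spread (chi-square per degree of freedom) was 32.6 for hairpin 1 and 4.22 for hairpin 2. It was 22.1 for control cocultures and 13.4 for control cells alone. The main fit shares each gene's dispersion over all 4 groups, and the effect of this on the MMP1 calls was not tested. Averaged over both hairpins the log2 difference in MMP1 was -0.06 (95% interval -0.27 to 0.15, adjusted p = 0.748), a mean that stands for neither hairpin. MMP1 was the only 1 of 8 tested members called with hairpin 1, where 7.82% of all tested genes were called.

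The call for MMP1 with hairpin 1 held in 6 of 16 alternative settings, with adjusted p between 3.61e-06 and 0.223. It held without library 1 of hairpin 1, and it was lost without any other single library: the adjusted p was 0.126 without library 2 of hairpin 1, 0.0862 without either hairpin 2 library, 0.0602 and 0.223 without control coculture 1 and 2, and 0.0657 and 0.0685 without control-alone library 1 and 2. For hairpin 2, leaving out either hairpin 1 library brought the adjusted p to 0.0389 or 0.0394, and over 16 alternative settings it ran from 0.00102 to 0.436. The control cells with astrocytes and alone differed in MMP1 by a log2 of -0.24 (SE 0.106, adjusted p = 0.190).

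MMP1 between the hairpins had the largest ratio of the 8 tested members, 1.74 (hairpin 2 over hairpin 1, log2 0.80, SE 0.107, 95% interval 0.56 to 1.04). The adjusted p of 0.113 missed the threshold. It passed in 4 of 16 alternative settings, among them the fit without library 1 of hairpin 1 (0.0350) and DESeq2's Wald test (1.38e-07), and it ran from 1.09e-18 to nearly 1.00 over them. None of the 8 members was called between the hairpins, where 0.0316% of all tested genes were, although DESeq2 called 2, MMP1 and TIMP3. An unadjusted edgeR p under 0.05 was found for 4 of the 8, against 1084 of all 15806 tested genes. GJA1, the target, differed between hairpin 2 and hairpin 1 by a log2 of 0.24 (adjusted p = 0.705).

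**Figure D1:**
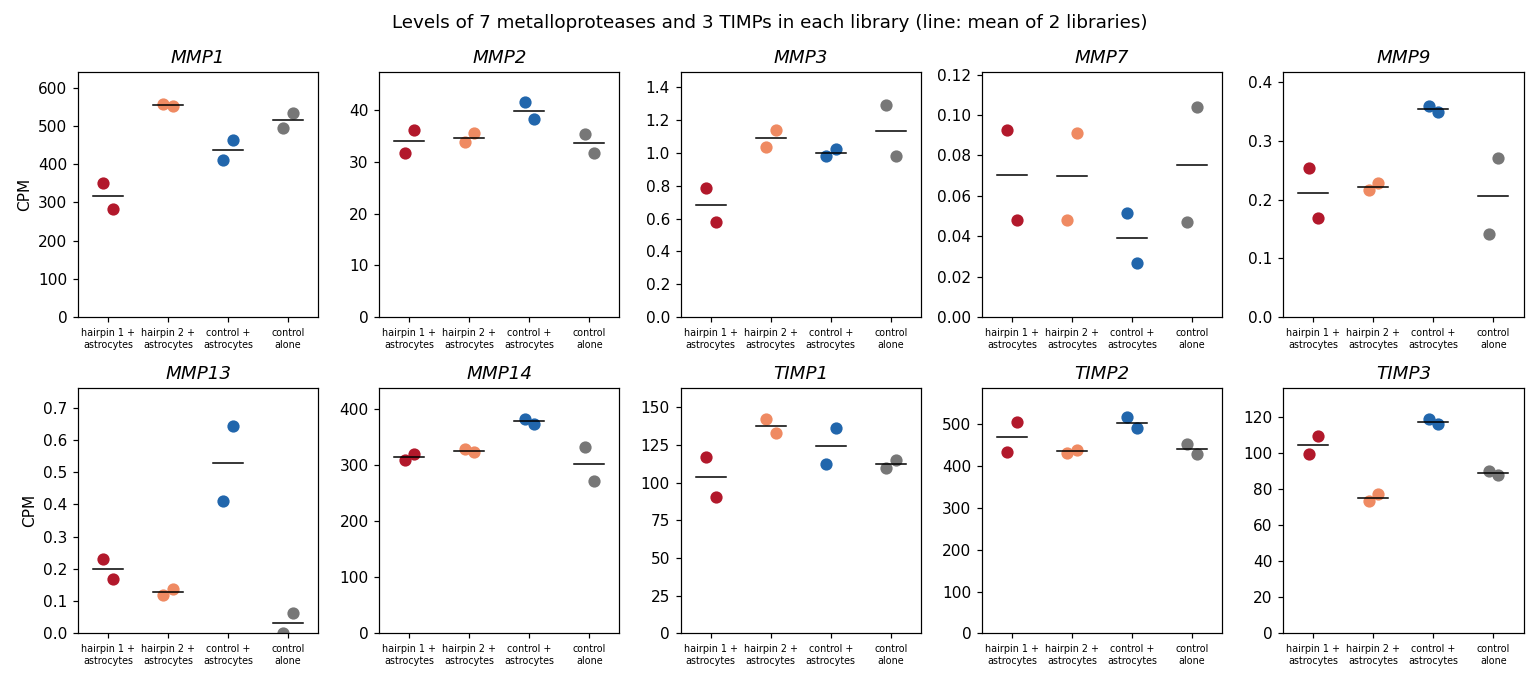
Levels (CPM, linear axes from 0) of each of the 10 genes in the 8 libraries, with each point a library and each line the mean of 2. MMP1 and MMP3 are lowest with hairpin 1, whereas TIMP3 is lowest with hairpin 2 and MMP13 is highest in control cocultures.

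MMP13, a further secreted collagenase, was present at a few reads and was highest in control cocultures. Its reads numbered 10 and 7 with hairpin 1, 5 and 6 with hairpin 2, 16 and 24 in control cocultures and 0 and 3 in control cells alone. Every control coculture library lay above every other library. The depth-scaled ratio of summed reads between control cocultures and control cells alone was 15.9, with an exact 95% interval of 5.06 to 80.3 that covers counting error only. Omitting control-alone library 1, which had no MMP13 read, brought it to 8.42 (interval 2.68 to 42.5), a setting chosen after the values were seen. Between both hairpins and the control cocultures the ratio was 0.313 (interval 0.186 to 0.521). For hairpin 1 it was 0.382 (0.203 to 0.690) and for hairpin 2 it was 0.245 (0.113 to 0.487). The ratio between the depleted cocultures and control cells alone was 4.98 (1.54 to 25.6), and 2.64 (0.815 to 13.6) when control-alone library 1 was omitted.

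In a fit without the low-count filter, edgeR called MMP13 higher in control cocultures than in control cells alone (adjusted p = 3.42e-08) and lower with depletion (adjusted p = 0.000511), over 30073 genes. The few filtered fits that MMP13 entered admitted it only through its reads in control cocultures, so nothing is drawn from them. Even in control cocultures its level was low, at 0.411 and 0.644 CPM.

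MMP3 (stromelysin 1) and MMP7 (matrilysin), which cut non-collagen matrix proteins and activate other proteases, were low. MMP3 had 0.786 and 0.579 CPM with hairpin 1, 1.04 and 1.14 CPM with hairpin 2, 0.977 and 1.02 CPM in control cocultures and 1.29 and 0.978 CPM in control cells alone. As with its chromosomal neighbour MMP1, both hairpin 1 libraries lay below and both hairpin 2 libraries above the control cocultures, though by little for hairpin 2. The log2 differences from the control cocultures were -0.54 for hairpin 1 (adjusted p = 0.206) and 0.12 for hairpin 2 (adjusted p = 0.820). Between the hairpins the log2 difference was 0.67 (SE 0.237, 95% interval 0.13 to 1.20, adjusted p = 0.705), on 93 reads with hairpin 2 and 58 with hairpin 1. MMP7 had 4 and 2 reads with hairpin 1, 2 and 4 with hairpin 2, 2 and 1 in control cocultures and 2 and 5 in control cells alone. No difference in MMP7 was detectable at this depth: the ratio of reads between depleted and control cocultures was 1.79 with an interval of 0.483 to 9.89.

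The gelatinases MMP2 and MMP9 cut denatured collagen and basement membrane collagen. MMP2 had 31.7 and 36.2 CPM with hairpin 1, 33.8 and 35.5 CPM with hairpin 2, 41.6 and 38.2 CPM in control cocultures and 35.4 and 31.8 CPM in control cells alone. The control cocultures lay above all 6 other libraries, by a small margin. The log2 difference was 0.25 between control cocultures and control cells alone (95% interval 0.04 to 0.46, adjusted p = 0.118) and -0.22 between depleted and control cocultures (SE 0.0787, adjusted p = 0.122). Neither passed the test, but the first had an adjusted p of 0.0471 or 0.0468 without either hairpin 1 library, and the second had 0.0403 without library 2 of hairpin 1. MMP9 numbered 11 and 7 reads with hairpin 1, 9 and 10 with hairpin 2, 14 and 13 in control cocultures and 6 and 13 in control cells alone. Since MMP9 passed the filter only through the control cocultures, it is described by its read ratios, which were 1.69 (interval 0.907 to 3.22) between control cocultures and control cells alone and 0.614 (0.364 to 1.05) between depleted and control cocultures. Both intervals include a ratio of 1, but the first was 2.52 (1.02 to 7.46) when control-alone library 2 was omitted and 1.31 (0.654 to 2.77) when control-alone library 1 was, settings chosen after the values were seen.

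MMP14 (MT1-MMP), the membrane-bound collagenase that activates pro-MMP2, showed the same order of groups as MMP2. MMP14 had 309 and 321 CPM with hairpin 1, 329 and 324 CPM with hairpin 2, 384 and 375 CPM in control cocultures and 333 and 272 CPM in control cells alone. The control cocultures were again above all other libraries, and the 2 libraries of control cells alone differed by a factor of 1.23, the widest replicate gap for this gene. The log2 difference was 0.33 between control cocultures and control cells alone (SE 0.0927, adjusted p = 0.0554). It passed in 5 of 16 alternative settings (adjusted p 0.00418 to 0.642), among them with DESeq2 (adjusted p = 0.0283) and in the edgeR fit that omitted control-alone library 1 (0.47, adjusted p = 0.0217) or without either hairpin 1 library (adjusted p = 0.0321 and 0.0324). Between depleted and control cocultures it was -0.24 (SE 0.0795, adjusted p = 0.0949), and 0.0483 when control-alone library 2 was omitted, over a range of 0.0224 to 0.662. Across the 8 libraries MMP14 and MMP2 had a Pearson r of 0.893 on the log2 CPM scale, and MMP2 and TIMP2 one of 0.866. These describe 4 groups of libraries that share depth and scaling, and no test was made of them.

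TIMP3 was the one inhibitor among the 3 that passed the test, and its level was highest in control cocultures. It had 99.4 and 109 CPM with hairpin 1, 73.2 and 77.2 CPM with hairpin 2, 118 and 116 CPM in control cocultures and 90.1 and 87.8 CPM in control cells alone. No pair of groups overlapped, and replicates lay within a ratio of 1.02 to 1.10 of each other. TIMP3 rose 1.32-fold in control cocultures relative to control cells alone (log2 0.40, SE 0.0700, adjusted p = 0.00803). It fell by 24.3% in depleted relative to control cocultures (log2 -0.40, SE 0.0598, adjusted p = 0.00515). These 2 contrasts share the control coculture libraries. TIMP3 was the only 1 of 8 tested members called in either contrast, where 11.7% and 9.22% of all tested genes were called. By direction, 8.74% of all tested genes were called higher and 2.93% lower in control cocultures than in control cells alone, and 3.37% were called higher and 5.85% lower with depletion. A share of 1 in 8 is near these backgrounds. Scaled by library totals alone, 786 genes were higher and 699 lower with depletion, in place of 533 and 924, and 826 were higher and 586 lower with hairpin 1, in place of 488 and 748, while TIMP3 and MMP1 kept their calls.

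By hairpin, TIMP3 fell by 35.8% with hairpin 2 relative to control cocultures (log2 -0.64, SE 0.0704, adjusted p = 0.00133), and it was the only 1 of 8 members called there, against 4.16% of all tested genes. With hairpin 1 the log2 difference was -0.16 (95% interval -0.32 to -0.01, adjusted p = 0.182). Hairpin 2 over hairpin 1 gave a log2 difference of -0.47 (SE 0.0703, 95% interval -0.63 to -0.31, adjusted p = 0.211), which 2 of 16 alternative settings called, DESeq2 (adjusted p = 0.000337) and the fit without a filter, over a range of 0.00019 to nearly 1.00. The hairpin 2 libraries were also below control cells alone, and the hairpin 1 libraries were above them. The hairpin 2 call held without any 1 of the 8 libraries, with an adjusted p of at most 0.0393. Between control cocultures and control cells alone the call held in 12 of 16 alternative settings (adjusted p 0.000417 to 0.366), and with depletion in 14 of 16 (1.32e-05 to 0.114). Limma on the values taken as already normalized ended both, with log2 differences of 0.15 (adjusted p = 0.366) and -0.24 (adjusted p = 0.114). The call for control cocultures against control cells alone also ended when control coculture 1 (0.38, adjusted p = 0.0579), control-alone library 1 (0.40, 0.0548) or control-alone library 2 (0.37, 0.0621) was omitted. For depleted against control cocultures it also ended when control coculture 1 was omitted (-0.38, adjusted p = 0.0504).

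Markers of other cells differed between the same groups. The summed level of 12 astrocyte markers was 225 to 236 CPM with hairpin 1, 222 to 228 CPM with hairpin 2, 265 to 270 CPM in control cocultures and 225 to 229 CPM in control cells alone, an order of groups in which control cocultures were highest, as for TIMP3, MMP14 and MMP2. Most of that sum was GLUL and SOX9, which the carcinoma cells alone also held. Among the 12, AQP4 had at most 0.169 CPM, S100B at most 0.0514 and GJB6 at most 0.0241 in any library. In contrast, GFAP had 16.5 and 16.9 CPM with hairpin 1, 11.7 and 12.2 CPM with hairpin 2, 13.8 and 12.8 CPM in control cocultures and 8.80 and 8.53 CPM in control cells alone. The remaining astrocyte markers are not given singly here. Summed microglia markers, mostly LAPTM5, stood at 133 to 145 CPM with hairpin 1, 153 CPM in both libraries of hairpin 2, 149 to 151 CPM in control cocultures and 87.5 to 88.2 CPM in control cells alone, with AIF1 and TYROBP at 0 reads in all libraries. Summed fibroblast markers stood at 444 to 521 CPM with hairpin 1, 494 to 510 CPM with hairpin 2, 770 to 825 CPM in control cocultures and 681 to 1085 CPM in control cells alone. Summed endothelial markers were 9.53 to 9.73 CPM with hairpin 1, 10.2 CPM in both libraries of hairpin 2, 11.6 to 12.6 CPM in control cocultures and 8.78 to 10.7 CPM in control cells alone. The 10 markers of the carcinoma line summed to 5196 to 5506 CPM with hairpin 1, 5110 to 5141 CPM with hairpin 2, 6124 to 6259 CPM in control cocultures and 5530 to 5877 CPM in control cells alone, so they too were highest in control cocultures. Of these 10, 2 were called higher and none lower in control cocultures than alone, against 8.74% and 2.93% of all tested genes. With depletion none was higher and 3 were lower, against 3.37% and 5.85%. Called higher in control cocultures were 3 of 8 tested astrocyte, 4 of 4 microglia, 2 of 9 fibroblast and 1 of 3 endothelial markers. None of them was called lower. The median log2 differences of these tested markers were 0.263 for astrocyte, 0.963 for microglia, -0.103 for fibroblast and 0.206 for endothelial markers. With depletion 2 astrocyte, 1 microglia, 4 fibroblast and 0 endothelial markers were called lower, and none higher. The part of other cells' RNA in the differences of the members was not tested. In these bulk libraries fewer cells holding a transcript and less transcript per cell cannot be told apart.

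The genes whose levels followed TIMP3 most closely over the 8 libraries, among 9777 candidates with a mean of at least 100 counts, were VDAC1 (Pearson r 0.988 on log2 CPM), CHEK1 (0.986) and ELOVL5 (0.980). VDAC1 is a channel of the outer mitochondrial membrane, CHEK1 a DNA damage checkpoint kinase and ELOVL5 a fatty acid elongase. The 8 points are 4 groups of 2 libraries, and the coefficients are a description.

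TIMP1, a secreted inhibitor of most soluble metalloproteases, had 117 and 90.2 CPM with hairpin 1, 142 and 133 CPM with hairpin 2, 112 and 136 CPM in control cocultures and 110 and 115 CPM in control cells alone. Only hairpin 2 stood clear of hairpin 1 and of control cells alone, and all other pairs of groups overlapped. The log2 differences were -0.26 for hairpin 1 (adjusted p = 0.238) and 0.15 for hairpin 2 (adjusted p = 0.591) relative to control cocultures, and 0.41 for hairpin 2 over hairpin 1 (95% interval 0.12 to 0.70, adjusted p = 0.705). Without library 1 of hairpin 1 the first of these was -0.46 (adjusted p = 0.0381). TIMP2 had 434 and 506 CPM with hairpin 1, 431 and 439 CPM with hairpin 2, 516 and 489 CPM in control cocultures and 453 and 428 CPM in control cells alone. Its log2 difference was 0.19 between control cocultures and control cells alone (adjusted p = 0.181) and -0.15 between depleted and control cocultures (adjusted p = 0.222, and 0.0448 without library 2 of hairpin 1). In that library TIMP2 lay within the range of the control cocultures.

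**Figure D2:**
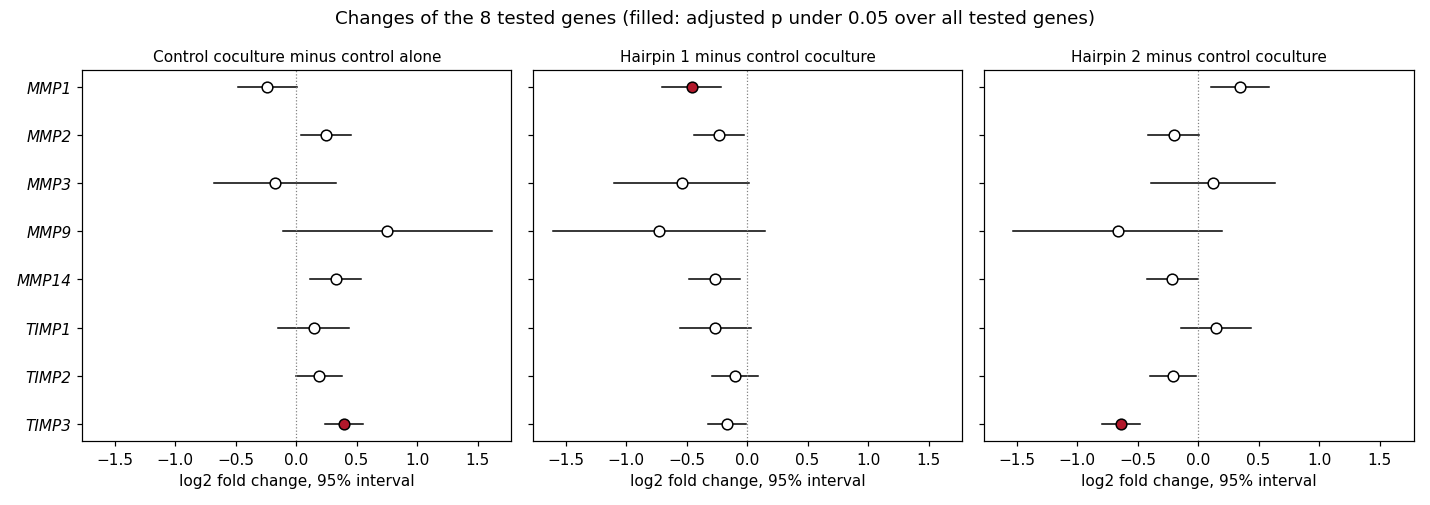
Log2 fold changes with 95% intervals for the 8 tested genes in 3 contrasts, filled where the adjusted p was under 0.05. TIMP3 is filled for control coculture minus control alone (0.40) and for hairpin 2 (-0.64), and MMP1 is filled for hairpin 1 (-0.46) while its hairpin 2 estimate lies at 0.34.

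MMP1 and TIMP1 tended to be low or high in the same libraries, with a Pearson r of 0.760 over the 8, and MMP1 and MMP3 had one of 0.877. The ratio of MMP1 to TIMP1 in CPM, chosen for display after the values were seen and given with no test, was 3.01 and 3.15 with hairpin 1, 3.92 and 4.14 with hairpin 2, 3.66 and 3.39 in control cocultures and 4.50 and 4.64 in control cells alone. The groups did not overlap in this ratio, and its replicates differed by a factor of 1.03 to 1.08, against 1.01 to 1.24 for MMP1 itself. The ratio of TIMP3 to TIMP2 was 0.229 and 0.216 with hairpin 1, 0.170 and 0.176 with hairpin 2, 0.229 and 0.236 in control cocultures and 0.199 and 0.205 in control cells alone, so hairpin 2 again stood lowest. The ratio of MMP14 to TIMP2 was 0.713 and 0.634 with hairpin 1, 0.763 and 0.738 with hairpin 2, 0.743 and 0.765 in control cocultures and 0.736 and 0.635 in control cells alone, with hairpin 2 overlapping the control cocultures and hairpin 1 overlapping control cells alone.

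**Figure D3:**
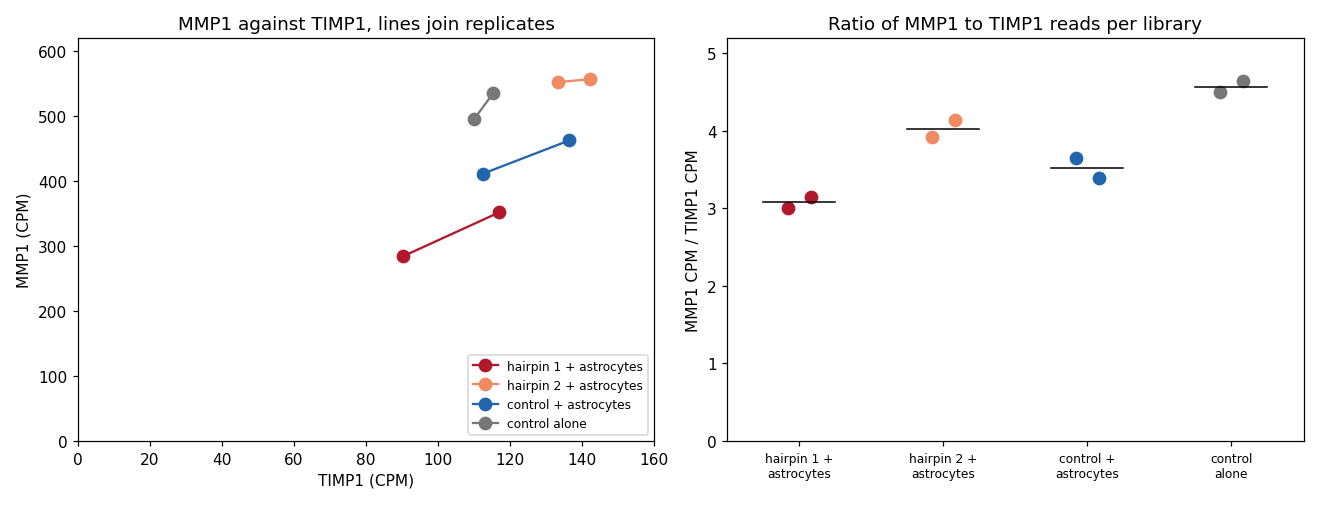
Left, MMP1 against TIMP1 (CPM) in each library, with a line joining the 2 libraries of a group. Right, the ratio of MMP1 to TIMP1 per library with the group mean as a line. The ratio is lowest with hairpin 1 (3.01 and 3.15) and highest in control cells alone (4.50 and 4.64).

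The depleted cocultures, set against control cells alone, differ in both the hairpin and the astrocytes. None of the 8 members was called in this contrast by edgeR, in which 17.1% of all tested genes were. An unadjusted edgeR p under 0.05 was found for 1 of the 8, against 5499 of all 15806 tested genes. That 1 was MMP1, with a log2 difference of -0.29 (SE 0.0908, adjusted p = 0.0560). DESeq2 called it (adjusted p = 0.0264), as did edgeR without library 1 of hairpin 1 (-0.38, adjusted p = 0.00764), and its adjusted p ran from 0.000363 to 0.305 over 16 alternative settings. The mean for MMP1 stands for neither hairpin. Hairpin 1 (352 and 284 CPM) lay below control cells alone (495 and 535 CPM) and hairpin 2 (556 and 552 CPM) above them. TIMP3 differed by a log2 of -0.01 (adjusted p = 0.963), also a mean over opposite sides. Its hairpin 1 libraries (99.4 and 109 CPM) lay above control cells alone (90.1 and 87.8 CPM) and its hairpin 2 libraries (73.2 and 77.2 CPM) below them. MMP14 differed by a log2 of 0.08 (adjusted p = 0.494).

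The wider family was described with lists of related genes, chosen with earlier results of these data known. Of 16 other metalloproteases 8 passed the filter, and MMP20, MMP26 and MMP27 had no read in any library. MMP11 (stromelysin 3) alone, 1 of 8, was called between control cocultures and control cells alone, against 11.7% of all tested genes. It had 1.87 and 2.08 CPM with hairpin 1, 2.12 and 2.05 CPM with hairpin 2, 2.55 and 3.03 CPM in control cocultures and 1.83 and 1.04 CPM in control cells alone, a log2 change of 0.97 (SE 0.236, adjusted p = 0.0315). The call ended when hairpin 2 library 1 or 2 (adjusted p = 0.0666 and 0.0665), control coculture 1 or 2 (0.0724 and 0.129) or control-alone library 2 (0.60, adjusted p = 0.134) was omitted. The median log2 difference over the 8 was 0.184, against -0.00256 over all tested genes. With depletion edgeR called none of the 8, against 9.22% of all tested genes. DESeq2 called none either, but it gave no adjusted p for 2 of them. An unadjusted edgeR p under 0.05 was found for 1 of the 8, against 4063 of all 15806 tested genes. The median log2 difference was -0.225, against -0.00798 over all genes. The membrane-type MMP15, at 9.87 and 8.48 CPM in control cocultures against 7.37 and 6.03 CPM in control cells alone, missed the threshold (log2 0.46, adjusted p = 0.0961), which it passed without either hairpin 1 library (adjusted p = 0.0314 and 0.0316).

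Among 7 tested inhibitors and modulators outside the member set, SPOCK2, RECK and TFPI2 were called higher in control cocultures than in control cells alone, and none lower, against 8.74% and 2.93% of all tested genes. SPOCK2, a matrix proteoglycan, had 2.01 and 1.88 CPM with hairpin 1, 1.78 and 2.34 CPM with hairpin 2, 2.88 and 2.42 CPM in control cocultures and 1.36 and 1.08 CPM in control cells alone (log2 change 1.12, SE 0.198, adjusted p = 0.00799), and it missed the threshold when control coculture 1 (adjusted p = 0.0622) or control-alone library 2 (0.0663) was omitted. RECK, a membrane-anchored metalloprotease inhibitor, rose by a log2 of 0.27 (adjusted p = 0.0420) and TFPI2, a matrix serine protease inhibitor, by 0.57 (adjusted p = 0.0488). Both lost their calls without any single library of hairpin 2, of the control coculture or of control cells alone, with adjusted p up to 0.227 for RECK and 0.238 for TFPI2. With depletion none of the 7 was called by edgeR or DESeq2, against 9.22% of all tested genes by edgeR. An unadjusted edgeR p under 0.05 was found for 4 of the 7, against 4063 of all 15806 tested genes. TIMP4 had 4.51 and 3.65 CPM with hairpin 1, 4.41 and 4.41 CPM with hairpin 2, 3.16 and 3.46 CPM in control cocultures and 2.25 and 2.66 CPM in control cells alone. Its group means stood in another order than those of TIMP3, lowest in control cells alone and higher with either hairpin than in control cocultures. TIMP4 was higher in depleted cocultures than in control cells alone (log2 0.78, SE 0.130, adjusted p = 0.00659), a call that ended when control-alone library 1 was omitted (0.66, adjusted p = 0.0716), and the difference of depleted from control cocultures was 0.36 (adjusted p = 0.118).

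**Figure D4:**
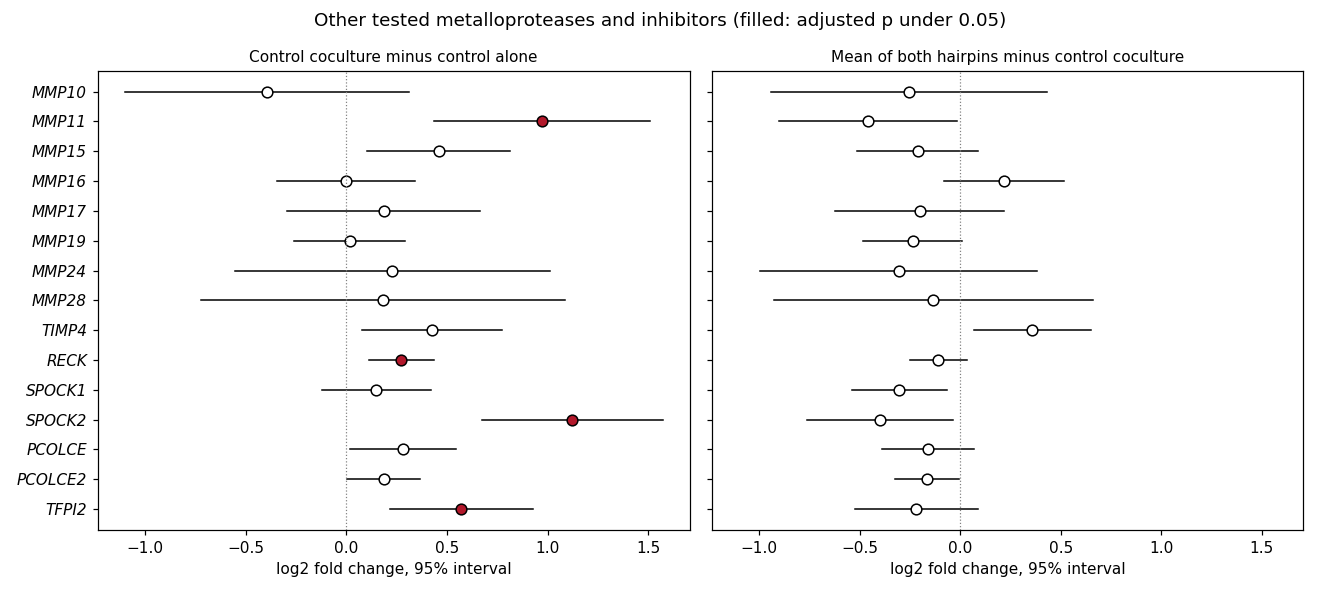
Log2 fold changes with 95% intervals for 15 other tested genes (metalloproteases, inhibitors and modulators), filled where the adjusted p was under 0.05. MMP11, RECK, SPOCK2 and TFPI2 are filled and positive for control coculture minus control alone, and none is filled for the mean of both hairpins minus control coculture.

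Related pathways were counted in the same way, and each count is to be read against the shares of all tested genes, 8.74% called higher and 2.93% lower in control cocultures than alone, and 3.37% higher and 5.85% lower with depletion. Of 19 tested genes for activation and docking, 7 were higher and none lower in control cocultures than in control cells alone, and with depletion 1 was higher and 1 lower relative to control cocultures. The plasminogen activators, whose product plasmin activates pro-metalloproteases, were among the first 7: PLAT by a log2 of 0.87 (adjusted p = 0.000466) and PLAU by 0.49 (adjusted p = 0.00116). Of 13 tested ADAM and ADAMTS proteases, relatives with a disintegrin domain, 5 were higher and none lower in control cocultures than alone, led by ADAMTS9 (0.99, adjusted p = 0.000229) and ADAM8 (0.56, adjusted p = 0.00379). None of these 13 was higher and 2 were lower with depletion, against 3.37% and 5.85% of all tested genes. ADAM17, the sheddase that TIMP3 inhibits, had 61.3 and 67.7 CPM with hairpin 1, 62.9 and 64.2 CPM with hairpin 2, 64.0 and 62.9 CPM in control cocultures and 49.1 and 51.9 CPM in control cells alone. It rose in control cocultures by a log2 of 0.33 (adjusted p = 0.0191), a call that ended without any single library of hairpin 2, of the control coculture or of control cells alone (adjusted p up to 0.140), and differed by 0.01 with depletion (adjusted p = 0.925).

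Of 11 tested cytokines and enzymes known to induce metalloproteases, 7 were higher and none lower in control cocultures than in control cells alone (median log2 0.955), against 8.74% and 2.93% of all tested genes. None was higher and 5 were lower in depleted than in control cocultures (median -0.231), against 3.37% and 5.85%. Because this list too was chosen with earlier results of these data known, its counts are a description. IL1B, a strong inducer of MMP1 and MMP3 in stromal cells, had 6.94 and 6.37 CPM with hairpin 1, 15.4 and 14.1 CPM with hairpin 2, 18.4 and 19.5 CPM in control cocultures and 3.45 and 3.79 CPM in control cells alone. Its log2 change was 2.38 in control cocultures relative to control cells alone (adjusted p = 1.16e-06) and -0.93 with depletion (adjusted p = 0.00013). The latter is a mean of unlike hairpins: -1.51 with hairpin 1 (adjusted p = 2.43e-05) and -0.36 with hairpin 2 (adjusted p = 0.0623), which was not called. IL1B was higher with hairpin 2 than with hairpin 1 (log2 1.15, adjusted p = 0.00678), a call lost without library 1 (1.09, adjusted p = 0.190) or library 2 (1.21, adjusted p = 0.0666) of hairpin 2. MMP1 had its lowest levels with hairpin 1 and IL1B in control cells alone, and both had higher levels with hairpin 2 than with hairpin 1. A link between IL1B and MMP1 was not tested. IL1A fell by 1.01 on the log2 scale with depletion (adjusted p = 8.66e-05) and EREG, an EGF receptor ligand, fell by 1.00 (adjusted p = 4.21e-05).

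Of 21 transcription factors of the AP-1, ETS and NF-kB classes, which act at many metalloprotease promoters, 6 were higher and none lower in control cocultures than in control cells alone, against 8.74% and 2.93% of all tested genes. With depletion 1 was higher and 4 were lower, against 3.37% and 5.85%. JUNB, an AP-1 subunit, had 61.0 and 57.2 CPM with hairpin 1, 70.3 and 66.5 CPM with hairpin 2, 91.6 and 90.4 CPM in control cocultures and 55.0 and 55.6 CPM in control cells alone (log2 0.72, adjusted p = 0.000196 for control cocultures against control cells alone and -0.52, adjusted p = 0.000885 with depletion). Of 16 tested genes of invadopodia and MMP14 trafficking, 3 were higher and none lower in control cocultures than alone (8.74% and 2.93% of all tested genes), and 1 was higher and 1 lower with depletion (3.37% and 5.85%). Of 28 tested matrix substrates, none was higher and 1 was lower in control cocultures than alone, against the same 8.74% and 2.93%. None was higher and 3 were lower with depletion, against 3.37% and 5.85%, and of these SPARC, a collagen-binding matrix protein, fell by 0.51 on the log2 scale (adjusted p = 0.00109). PLAT, PLAU, ADAMTS9, ADAM8, IL1B and JUNB in control cocultures, and IL1B, IL1A, EREG, JUNB and SPARC with depletion, kept these calls whichever single library was left out.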

How the data were processed

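Ribosome-bound RNA of 8 libraries in 4 groups was prepared with a TruSeq RNA v2 kit, per the labels' protocols, and sequenced on an Illumina HiSeq. TopHat2, HTSeq, DESeq2 and hg19 are named without versions or roles, per the submitters' processing notes. How genes were annotated and whether counting used strand is not given in the sources used here. Per gene, the authors deposited whole-number counts in a table whose name calls them normalized. They were treated as unnormalized counts because their sums differ between libraries and no value is fractional. The 5 counter rows of the table were left out. Non-unique alignments were 14.2% to 26.1% of a library's total, highest in control coculture 1.

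Counts were tested in R 4.3.3 with edgeR 4.0.16 (quasi-likelihood test, TMM factors 0.975 to 1.03, mean count of at least 10, all 8 libraries in 1 fit, no covariates). The step was also tested on simulated data. CPM use TMM-scaled totals. Depletion stands for the average of hairpins 1 and 2 against the control coculture. Intervals for ratios of reads are exact, at 95%, and cover counting error only. Alternatives used limma 3.58.1, DESeq2 1.42.0, other scalings and filters, a replicate block, the compared groups only, and 1 library left out at a time. No set test was run. Lengths and positions are from GENCODE 29 and promoters from RefSeq, both on GRCh38, whereas the counts were made on hg19. All 10 members are named. From each other list, up to 4 called genes with the smallest p per comparison could be named, and the other metalloproteases, TIMP4 and RECK in any comparison. The genes most like TIMP3 were ranked by Pearson r. ADAM17 was within this rule. The members and lists were chosen with earlier results of these data known.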

Additional observations from a re-analysis of the deposited data

Results flagged for a closer look

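MMP1 was flagged because both hairpin 1 libraries lay below and both hairpin 2 libraries above both control cocultures. The log2 difference of hairpin 2 minus hairpin 1 was 0.80, and edgeR's test of that difference gave an adjusted p of 0.113, with a log2 difference of 0.65 to 0.96 over 16 alternative settings. MMP3 was flagged for the same reason, with a log2 difference of 0.67 and adjusted p = 0.705, on 93 reads with hairpin 2 and 58 with hairpin 1. Both genes lie in the cluster on chromosome 11. So do the members MMP7 and MMP13, which were not flagged. Their read ratios of hairpin 2 over hairpin 1 were 0.991 (interval 0.265 to 3.71) and 0.641 (0.271 to 1.45). The flag goes by the order of the libraries, and both control cocultures are shared by the hairpins.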

How the results depend on the processing

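The members called changed in number with these settings. Without the filter 10 members were tested, with DESeq2 and limma 8, and with the compared groups only 9 in the contrasts given. DESeq2 gave no adjusted p for MMP9 in any contrast, nor for MMP3 between hairpins. Without the filter 2805 of 30073 genes were called for control cocultures, 2167 with depletion, 2269 with hairpin 1 and 1191 with hairpin 2. DESeq2 called 1771 of 15806 genes for control cocultures, 22 between hairpins and 2765 for depleted cocultures against control cells alone. Without the low-count filter 4 were called between control cocultures and control cells alone (TIMP3, MMP13 and MMP14 higher, MMP1 lower), 3 with depletion (TIMP3, MMP13 and MMP14 lower), 3 with hairpin 1 (MMP1, MMP13 and MMP14 lower), 3 with hairpin 2 (MMP1 higher, TIMP3 and MMP13 lower), 3 between hairpins (MMP1 and TIMP1 higher, TIMP3 lower with hairpin 2) and 2 between depleted cocultures and control cells alone (MMP13 higher, MMP1 lower). DESeq2 called 2 for control cocultures, 2 between hairpins and 1 for depleted cocultures against control cells alone. Limma on the values taken as already normalized, which moved the median of all genes to -0.251 for control cocultures and 0.15 for depletion, called 1 for control cocultures (MMP1 lower, with TIMP3 lost at 0.15, adjusted p = 0.366), 0 with depletion, 0 with hairpin 1, 2 with hairpin 2, 1 between hairpins and 1 for depleted cocultures against control cells alone. With the compared groups only, the counts were 2 for control cocultures, 3 with depletion, 0 with hairpin 1 and 3 with hairpin 2, and MMP13 entered these fits only through the control cocultures. Leaving out 1 library gave 0 to 3 for control cocultures, 0 to 3 with depletion, 0 to 2 with hairpin 1, 1 to 2 with hairpin 2, 0 to 1 between hairpins and 0 to 1 for depleted cocultures against control cells alone. The cause of these changes was not tested. RLE size factors, library totals and a mean of at least 50 counts gave the same number called in every comparison. No call changed direction, but 33 of 748 values of tested members changed sign, none of them called in either setting. They were 22 with 1 library left out, 1 with library totals (TIMP3 for depleted cocultures against control cells alone, 0.03) and 10 with limma on values taken as normalized, among them TIMP1 (-0.11) and TIMP2 (-0.06) for control cocultures and MMP1 (0.10) and TIMP1 (0.10) with depletion. The 3 genes most like TIMP3 were the same on the log2(CPM + 1) scale.

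Equal replicate numbers did not match libraries across all groups. The replicate differences of 11997 genes correlated at 0.467 between the control groups and at 0.328 between the hairpins. With the control coculture the r was -0.753 for hairpin 1 and -0.365 for hairpin 2. With control cells alone it was -0.522 and -0.119. Whether the libraries pair under another numbering was not tested, and the replicate block used the numbers as labelled. With a replicate block 0 members were called with hairpin 1 (MMP1 adjusted p = 0.0886), and the other counts of members did not change. Over all genes the block called 1160 in place of 1844 for control cocultures, 700 in place of 1457 with depletion, 446 in place of 1236 and 319 in place of 658 with hairpin 1 and hairpin 2, 0 in place of 5 between hairpins and 1502 in place of 2709 for depleted cocultures against control cells alone. In the same comparisons, the fit without a filter called 2805 for control cocultures, 2167 with depletion, 2269 with hairpin 1 and 1191 with hairpin 2. It called 304 between hairpins and 4117 for depleted cocultures against control cells alone. The compared groups only gave 1589 for control cocultures, 1068 with depletion, 236 with hairpin 1, 987 with hairpin 2 and 2 between hairpins. DESeq2 gave 22 between hairpins, where library totals and a mean of at least 50 counts gave 3. Limma on the values as normalized called 5425 for control cocultures (665 higher and 4760 lower), 2661 with depletion (2261 and 400), 1969 with hairpin 1, 1281 with hairpin 2 and 27 between hairpins. With 1 library left out, the counts ran from 738 to 2582 for control cocultures, 343 to 2314 with depletion, 281 to 2405 with hairpin 1, 150 to 1101 with hairpin 2, 0 to 3 between hairpins and 531 to 4717 for depleted cocultures against control cells alone. Counts of 0 to 24 reads limit MMP7, MMP9 and MMP13.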
